A study of Canis lupus familiaris with 5 samples.

Results

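The fibrillar collagen locus at the end of dog chromosome 36 was followed through 3 successive stages of reprogramming, in skin fibroblasts, in induced neural stem cell-like cells (iNSLCs) and in induced pluripotent stem cells (iPSCs). Its members were all gene models of the count table that lie wholly between 30.4 and 30.8 megabases on chromosome 36 of the CanFam3.1 build, which gave 3 of the 32220 models. The window was selected on measured values, since it was drawn around a model already known to differ strongly between iPSCs and both other stages, so the levels below describe the locus and carry no p-values of their own. All 5 RNA-seq libraries came from the cells of 1 adult dog, named K9. They were 1 library of ear skin fibroblasts at passage 1, 1 library of iNSLCs at passage 2 and 3 libraries of iPSC clones, at passage 9 for iPSC 1 and passage 8 for iPSC 2 and iPSC 3. The iNSLCs are the cells of the primary colonies that formed after fibroblasts received episomal vectors (GLIS1, KDM4D, NANOG, KLF2, mp53DD, LIN28, L-MYC, KLF4, SOX2, OCT4 and the reporter EGFP) and grew on mouse feeder cells in NSM, a medium reported for naive-state pluripotent cells, and the iPSCs are clones picked after such colonies were moved to an embryonic stem cell medium (ESM). Each fibroblast or iNSLC value is a single library without replicate error. The spread between clones of 1 animal, with passage changing along with stage, is the only replicate error available, and stage and passage cannot be told apart.

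Fibrillar collagens are the rod-like proteins from which fibroblasts build the fibres of skin and other connective tissue. Each molecule is a triple helix of alpha chains whose repeating glycine triplets are encoded by many short exons. Most of these fall into 5 sizes, all multiples of 9 bases and most often 54 bases, a layout largely shared within the family. Type III collagen is a homotrimer laid down beside type I collagen in elastic tissues such as skin and vessels. Type V collagen is a minor component that helps to start fibrils and to limit their thickness.

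The identity of the models was checked against the label of the locus. The files hold Ensembl IDs without symbols, and none of the 43286 entries of the RefSeq gene table at hand, made for another assembly (UU_Cfam_GSD_1.0), carries an Ensembl ID, so 0 IDs were matched. In that table chromosome 36 holds 2 fibrillar collagen genes, COL3A1 (the chain of type III collagen) and COL5A2 (a chain of type V collagen), with 0 protein-coding genes between them. In the count table, chromosome 36 likewise holds 2 models built like a fibrillar collagen, side by side. Exon structure and neighbourhood thus fit the label at the level of the pair, but no source ties either ID to either symbol, and the models are called by their IDs here. For the same reason the labelled cell types could not be checked against marker genes.

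The first of the pair, ENSCAFG00000014812, lies on the plus strand from 30487822 to 30526563, a span of 38742 bases with 6237 bases of merged exon. Of its 54 distinct exons, 42 or 77.8% had one of these 5 sizes, and 45 had a length divisible by 9. The other, ENSCAFG00000014837, lies on the minus strand from 30537639 to 30677658, a span of 140020 bases with 7539 bases of merged exon, and 43 of its 54 exons (79.6%) had one of them. Exons of 54 bases were the most frequent in both, at 24 each, followed by exons of the doubled size at 8 each. The 13 models with the exon layout of a fibrillar collagen, defined below and including the pair, were left out of the background. Among the 2811 remaining models with at least 20 exons the median share of such exons was 2.5%. The pair is transcribed towards each other, with 11075 bases between the facing ends.

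Both models carried the same core. Counted in the direction of transcription after overlapping exons were merged, exons 6 to 47 of ENSCAFG00000014812 and exons 9 to 50 of ENSCAFG00000014837 form stretches of 42 exons, and 40 of these 42 had the same length in both models. Of the 2 that differed, the first exon of the stretch has 54 bases in ENSCAFG00000014812 and 45 in ENSCAFG00000014837. The other is merged exon 30 of ENSCAFG00000014812, with 150 bases where exon 33 of ENSCAFG00000014837 has 99. Before merging, both models had 5 distinct exons of 99 bases, so the 150 bases may come from merging overlapping exons and need not be a difference in structure. The stretch of ENSCAFG00000014837 was also found whole, 42 exons and 2988 bases long, in a model on chromosome 14. Related exons of this kind can attract each other's reads, and how reads with several matches were handled is not stated in the sources used, so small counts in any of these models are uncertain.

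**Figure D1:**
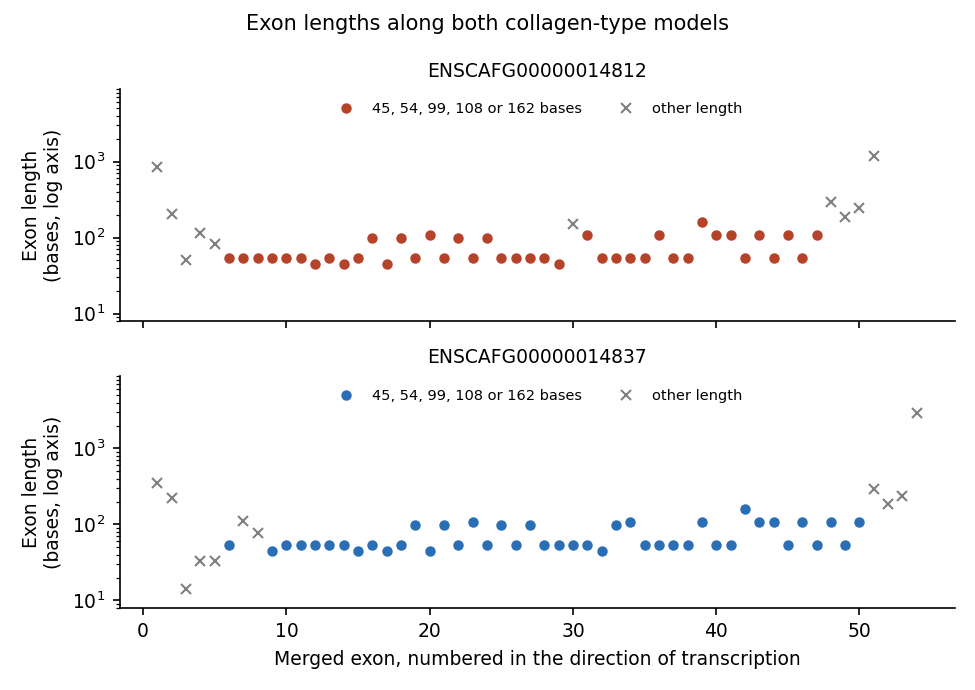
Length of each merged exon (bases, log axis) against its place in the direction of transcription, for ENSCAFG00000014812 (upper panel) and ENSCAFG00000014837 (lower panel). Filled circles are exons of the 5 sizes of the collagen helix, listed in the legend, and crosses are other lengths. The filled circles form the stretch of exons 6 to 47 in the upper panel, broken by 1 merged exon of 150 bases. In the lower panel they form the stretch of exons 9 to 50, and exon 6 is a further filled circle on its own.

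The third member, ENSCAFG00000027464, is a single short exon on the minus strand (30468451 to 30468554), 19267 bases before ENSCAFG00000014812. It had 0 counts in each of the 5 libraries. Whether mRNA sequencing, as the paper names the method, can detect a transcript of 104 bases was not tested. A count of 0 allows up to 3 counts, or between 0.0810 CPM in iPSC 3 and 0.262 CPM in the iNSLC library, where CPM are counts per 1000000 counts of the library, scaled by the trimmed mean of M-values (TMM). It did not pass the filter on low counts, so 2 of the 3 members entered the fit across all genes.

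ENSCAFG00000014812 was among the most abundant transcripts of the fibroblasts and iNSLCs and a minor one in the iPSCs. It had 844771 counts or 32976 CPM in the fibroblast library, 369893 counts or 32255 CPM in the iNSLC library, and 784, 204 and 334 counts or 24.2, 9.08 and 9.02 CPM in iPSC 1, iPSC 2 and iPSC 3. By CPM it ranked 2 of all models in fibroblasts and 1 in iNSLCs, and between 6547 and 9251 in the clones. All clones lay far below the other libraries, and iPSC 1 stood above the other two clones by more than the counting error (95% Poisson interval 22.6 to 26.0 CPM in iPSC 1, 7.87 to 10.4 CPM in iPSC 2 and 8.08 to 10.04 CPM in iPSC 3).

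ENSCAFG00000014837 was also far lower in the clones than in the other libraries, over a shorter range. It had 287411 counts or 11219 CPM in fibroblasts, 59742 counts or 5210 CPM in iNSLCs, and 4990, 5193 and 4056 counts or 154, 231 and 109.5 CPM in iPSC 1, iPSC 2 and iPSC 3. Its rank by CPM was 6 in fibroblasts, 9 in iNSLCs and 621 to 1792 in the clones. The order of the clones differed from that of its neighbour, since the highest clone was iPSC 2 here (225 to 237 CPM) and iPSC 1 for ENSCAFG00000014812. The lowest clone here was iPSC 3, whereas for ENSCAFG00000014812 iPSC 2 and iPSC 3 lay within counting error of each other (9.08 and 9.02 CPM). In bulk RNA a smaller number of expressing cells and less RNA per cell cannot be told apart, so the residual level in a clone may be an average over unlike cells.

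**Figure D2:**
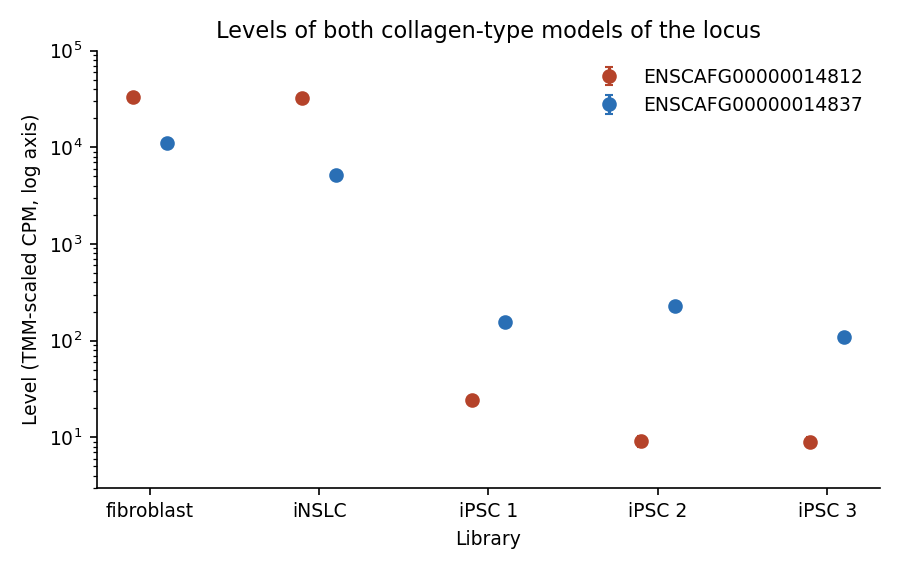
Level of the 2 collagen-type models of the locus in each library (TMM-scaled CPM, log axis), with 1 point per library and 95% Poisson intervals that are mostly smaller than the points. ENSCAFG00000014812 is above ENSCAFG00000014837 in fibroblasts and iNSLCs (32976 against 11219 CPM and 32255 against 5210 CPM) and below it in all 3 iPSC clones. The single-exon member, with 0 counts in every library, is not drawn.

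The locus as a whole took a large part of the sequenced RNA before the iPSC stage. Its members held 3.40% of the fibroblast library (Clopper-Pearson 95% interval 3.40 to 3.41%) and 3.67% of the iNSLC library (3.66 to 3.68%). In iPSC 1, iPSC 2 and iPSC 3 the share was 0.0195%, 0.0270% and 0.0128%. Of all counts on chromosome 36, the pair held 80.0% in fibroblasts, 86.8% in iNSLCs and 1.77 to 3.68% in the clones. The intervals cover counting error only.

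The comparison of iPSCs with fibroblasts set the reprogrammed cells against the cells they were made from. ENSCAFG00000014812 reached a clone mean of 14.1 ± 8.77 CPM (SD, n = 3) against 32976 CPM in fibroblasts, a log2 fold change of -11.19 with a standard error of 0.73. ENSCAFG00000014837 reached 165 ± 61.5 CPM (SD, n = 3) against 11219 CPM in fibroblasts, a log2 fold change of -6.09 with a standard error of 0.45. These are fold differences of 2334 and 68.0. Among the 17479 genes tested, ordered from the most negative fold change, they stood at places 14 and 341, and the median of all genes was 0.27. Both of the 2 members tested were called lower by the quasi-likelihood test of edgeR (Benjamini-Hochberg adjusted p under 0.05), as were 14.3% of all genes tested (28.0% were called in either direction). As the locus was chosen with this contrast known, nothing is read from the count.

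The comparison of iPSCs with iNSLCs spanned the move to embryonic stem cell medium together with the picking and passaging of clones. The paper also reports that the episomal vectors had been lost from the clones. These changes cannot be told apart here. Only iPSC 1 carries the line number of the iNSLC library, so that library need not be the precursor of iPSC 2 and iPSC 3. ENSCAFG00000014812 had 14.1 ± 8.77 CPM (SD, n = 3) in iPSCs against 32255 CPM in iNSLCs (log2 fold change -11.16, standard error 0.73). ENSCAFG00000014837 had 165 ± 61.5 CPM (SD, n = 3) in iPSCs against 5210 CPM in iNSLCs (log2 fold change -4.98, standard error 0.44), a fold difference of 31.6. Their places from the most negative fold change were 16 and 492 of 17479, where the median of all genes was 0.20. Both were called lower, against a background of 7.71% of all genes tested lower and 11.2% in either direction, and again nothing is read from the count. Without iPSC 3 edgeR called 0 of all genes here (4863 at an unadjusted p under 0.05, and 2412 called by DESeq2) and so neither model. The log2 fold changes of the 2 models were then -11.00 and -4.83. This comparison and the one with fibroblasts share the iPSC libraries and are not independent.

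Between iNSLCs and fibroblasts, the first step of the process, the 2 models parted. For ENSCAFG00000014812 the iNSLC level was 0.978 of the fibroblast level, with a counting interval of 0.974 to 0.982. For ENSCAFG00000014837 it was 0.464 of the fibroblast level (0.460 to 0.468). The direction for ENSCAFG00000014812 hangs on the scaling, with ratios of 1.004 with the size factors of DESeq2 and 1.25 with library size only, whereas ENSCAFG00000014837 was lower in iNSLCs under all 3 (0.464, 0.477 and 0.591). The median ratio of the 10237 genes that reached 10 CPM on either side was 0.864. At least 2-fold lower in iNSLCs were 1 of the 2 models and 20.9% of these genes, and 0 of the 2 models and 14.0% of these genes were at least 2-fold higher. Each side is 1 library, so neither ratio has a replicate check and no test was made.

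On a log2 scale from the fibroblast level (0%) to the mean iPSC level (100%), with TMM scaling, the iNSLC library stood at 0.285% for ENSCAFG00000014812 and at 18.2% for ENSCAFG00000014837. Against single clones the positions were 0.269 to 0.306% and 16.6 to 19.8%. For ENSCAFG00000014812 nearly the whole difference between fibroblasts and iPSCs thus lay after the iNSLC library, and for ENSCAFG00000014837 part of it lay before. These positions rest on a single bulk iNSLC library, and whether it still held fibroblasts was not tested.

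The balance within the pair turned over. This ratio is taken inside a library and does not depend on its depth or scaling. ENSCAFG00000014812 had 2.94 times the counts of ENSCAFG00000014837 in fibroblasts (counting interval 2.93 to 2.95) and 6.19 times in iNSLCs (6.14 to 6.25). In iPSC 1, iPSC 2 and iPSC 3 the ratio was 0.157 (0.146 to 0.169), 0.0393 (0.0340 to 0.0452) and 0.0823 (0.0734 to 0.0921), a mean of 0.0929 ± 0.0596 (SD, n = 3). The pair ratio was thus 2.11 times as high in iNSLCs as in fibroblasts, and every clone lay below 1. Per kilobase of merged exon, ENSCAFG00000014812 stood at 3.55 times the level of ENSCAFG00000014837 in fibroblasts and 7.48 times in iNSLCs, while in the clones ENSCAFG00000014837 stood at 5.27, 21.1 and 10.05 times the level of ENSCAFG00000014812. The clones differed from each other in this ratio by more than counting error, as their intervals did not overlap.

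**Figure D3:**
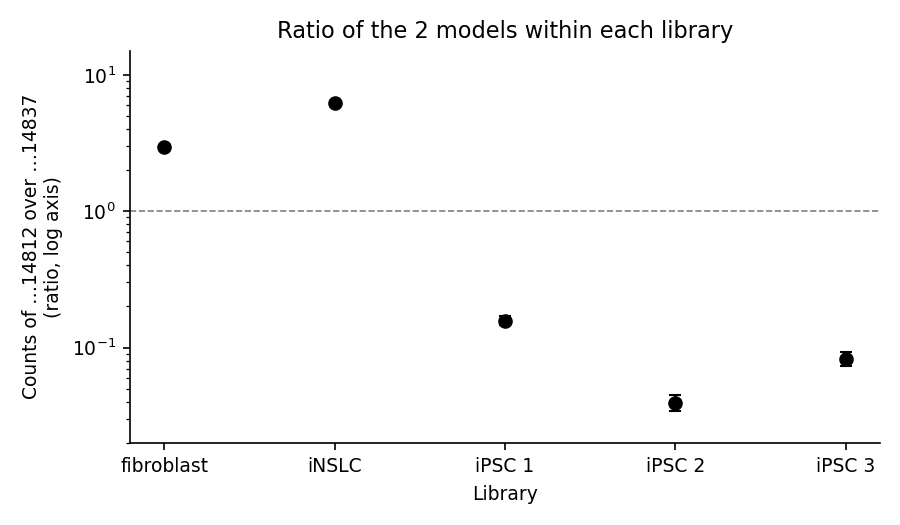
Counts of ENSCAFG00000014812 divided by counts of ENSCAFG00000014837 within each library (log axis), with 95% intervals for counting error and a dashed line at equal counts. The ratio is 2.94 in fibroblasts and 6.19 in iNSLCs, and between 0.0393 and 0.157 in the 3 iPSC clones.

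Both models varied more between clones than most genes of their level. The coefficient of variation was 62.1% for ENSCAFG00000014812, where the 3894 genes within 2-fold of its iPSC mean had a median of 25.8%, and 92.3% of these varied less. For ENSCAFG00000014837 it was 37.3% against a median of 17.6% over 2082 genes, of which 90.2% varied less. The highest clone exceeded the lowest by 2.69 times and 2.11 times. Mouse feeder cells were used during induction in the study, and reads of mouse origin were not separated here. Their part in these low levels was not tested.

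Few models near the locus had counts. No model of the table lies beyond ENSCAFG00000014837, which is the last of 331 on chromosome 36. On the other side, the nearest model outside the window, ENSCAFG00000035294 (30239261 to 30269563), had 3 counts in fibroblasts, 0 in iNSLCs and 0, 0 and 1 in the clones. Of the 10 models before the locus, 6 had 0 counts in all libraries and 2 passed the filter, which are named here after their values were seen. ENSCAFG00000014796 (30108886 to 30250892) had 165, 44.4 and 78.6 CPM in the iPSC clones and 51.3 CPM in iNSLCs, against 151 CPM in fibroblasts, and was called in neither comparison. ENSCAFG00000014752 (29457093 to 29511310) had 12.3, 4.94 and 3.32 CPM in the clones against 58.7 CPM in fibroblasts, a called difference (log2 fold change -3.10), and 7.24 CPM in iNSLCs, from which the clones were not called different. Over the other 155 tested models of chromosome 36, 35 were called lower and 29 higher in iPSCs than in fibroblasts (median log2 fold change 0.08). Of all genes tested, 14.3% were called lower and 13.7% higher there. Against iNSLCs, 17 of the 155 were called lower and 8 higher (median 0.10), where 7.71% of all genes were lower and 3.51% higher. Whether these shares differ was not tested.

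The pair was then set beside the other models with the exon layout of a fibrillar collagen. With at least 20 exons of the named sizes making up at least 40% of all exons, 13 models were found, the pair included. On 7 of the 9 chromosomes that hold such a model or one of the 11 fibrillar collagen symbols of the RefSeq table, the numbers of models and symbols were the same. Chromosome 12 had 1 model more, and chromosome 13 had 1 model and no symbol. Outside the locus 10 of 11 passed the filter. Of these, ENSCAFG00000002562 had 0 counts in fibroblasts, iNSLCs and iPSC 2, against 31 in iPSC 1 and 8 in iPSC 3. The filter thus set the sign of its log2 fold change (6.38, called in neither comparison), which enters the medians below. Without iPSC 1, 9 models were tested, with medians of -1.92 against fibroblasts and 0.75 against iNSLCs. In iPSCs, 5 of the 10 were called lower and 2 higher than in fibroblasts, with a median log2 fold change of -0.89 (all genes 0.27). Of all genes, 14.3% were called lower and 13.7% higher. Against iNSLCs 4 were called lower and 1 higher, with a median of 0.91 (all genes 0.20), where 7.71% and 3.51% of all genes were called. Without iPSC 3 the calls were 4 lower and 2 higher against fibroblasts, beside 1519 lower and 1260 higher of all 16742 genes tested. Against iNSLCs they were 0, as for all genes, and 7 of the 10 had an unadjusted p under 0.05. Without iPSC 2 the calls were 5 lower and 4 higher against fibroblasts, beside 3270 lower and 3636 higher of all 17138 genes tested. Against iNSLCs they were 4 lower and 2 higher, beside 2604 lower and 1555 higher of all genes. The list thus held calls in both directions.

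Together the 13 models took 8.77% of the fibroblast library, 8.68% of the iNSLC library and 0.202, 0.137 and 0.188% of iPSC 1, iPSC 2 and iPSC 3. The pair held 38.8% of these collagen-type counts in fibroblasts, 42.3% in iNSLCs and 9.68, 19.7 and 6.79% in the clones.

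The models of this family that were abundant in fibroblasts are given as a description, since a choice by the fibroblast level favours lower values elsewhere. Models of at least 1000 CPM in fibroblasts were the pair, both models on chromosome 9 and the one on chromosome 14, and these 5 held 99.2% of all collagen-type counts in fibroblasts and 99.8% in iNSLCs, and 33.8 to 58.6% in the clones. ENSCAFG00000017018 on chromosome 9 (26183852 to 26199927) reached a clone mean of 307 ± 64.4 CPM (SD, n = 3) against 37048 CPM in fibroblasts. ENSCAFG00000002069 on chromosome 14 (19883733 to 19920718) reached a clone mean of 146 ± 39.98 CPM (SD, n = 3) against 23476 CPM in fibroblasts. The log2 fold changes of the 3 abundant models outside the locus lay between -7.33 and -6.77 against fibroblasts and between -6.99 and -5.76 against iNSLCs. The fitted fall of ENSCAFG00000014837, at -6.09 and -4.98, was smaller than theirs, and that of ENSCAFG00000014812, at -11.19 and -11.16, was larger. Whether these changes differ from each other was not tested.

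The gap to these models was also seen inside each library, where scaling plays no part. ENSCAFG00000014812 had 0.0690, 0.0270 and 0.0387 times the counts of ENSCAFG00000017018 in the clones and 1.14 times in iNSLCs, against 0.890 times in fibroblasts. Relative to ENSCAFG00000002069 it had 0.126, 0.0771 and 0.0703 times the counts in the clones and 1.73 times in iNSLCs, against 1.40 times in fibroblasts. Relative to ENSCAFG00000019848, also on chromosome 9 (50741552 to 50856744), the clones spread widely, with 0.248, 0.444 and 0.0818 times the counts, against 7.79 times in iNSLCs and 3.97 times in fibroblasts. By CPM per kilobase ENSCAFG00000014812 ranked 2 among the 13 collagen-type models in fibroblasts and in iNSLCs and 8, 9 and 10 in the clones, whereas ENSCAFG00000014837 ranked 4, 4 and 3 or 4. The iNSLC levels of the 3 abundant models outside the locus were 0.498 to 0.792 of the fibroblast levels, between the 0.464 of ENSCAFG00000014837 and the 0.978 of ENSCAFG00000014812.

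The 2 collagen-type models called higher against fibroblasts are named here after their values were seen. ENSCAFG00000009059 on chromosome 27 (6756994 to 6787846) reached a clone mean of 800 ± 331 CPM (SD, n = 3), with 28.7 CPM in iNSLCs and 5 counts or 0.195 CPM in fibroblasts, and was called higher in iPSCs in both comparisons. ENSCAFG00000020270 on chromosome 6 (61930848 to 62316769) reached 11.3 ± 2.43 CPM (SD, n = 3), with 3.23 CPM in iNSLCs and 8 counts or 0.312 CPM in fibroblasts, and was called higher against fibroblasts and not called against iNSLCs. In the clones ENSCAFG00000009059, at 159 ± 65.6 CPM per kilobase (SD, n = 3), stood above both models of the locus, which had 2.26 ± 1.41 and 21.9 ± 8.15 CPM per kilobase (SD, n = 3).

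**Figure D4:**
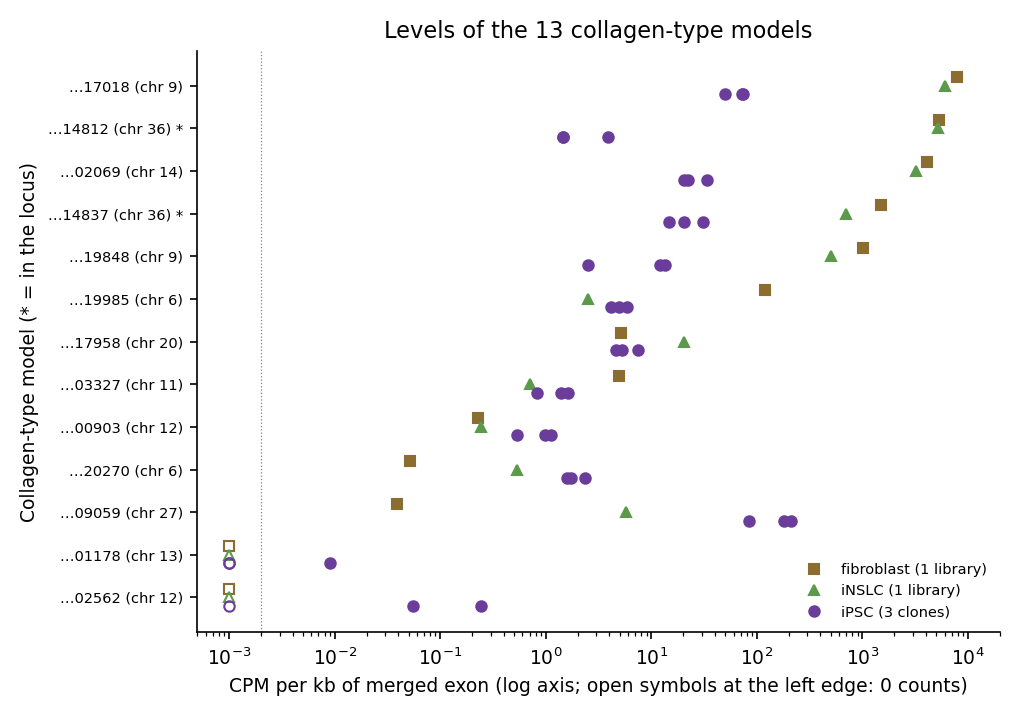
Level of the 13 models with the exon layout of a fibrillar collagen, in CPM per kilobase of merged exon (log axis), ordered by the fibroblast level. Squares are fibroblasts, triangles iNSLCs and circles the 3 iPSC clones, and open symbols at the left edge stand for 0 counts. ENSCAFG00000014812, marked with a star on chromosome 36, has the second highest fibroblast level and drops to 2.26 ± 1.41 CPM per kilobase (SD, n = 3) in iPSCs, where the clone means of the 3 abundant models outside the locus are 9.31 to 65.2.

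The genes most like each model over the 5 libraries were not collagen-type models. Likeness was the root mean square difference between profiles of log2(CPM + 1), each centred on its own mean, and is given as a description over 5 libraries. The nearest of 17477 genes to ENSCAFG00000014812 were ENSCAFG00000006142 on chromosome 15 (31834014 to 31877417) at 0.53 log2 units and ENSCAFG00000000874 on chromosome 1 (56400874 to 56427286) at 0.67. ENSCAFG00000006142 had 2226 CPM in iNSLCs, 0.556, 0.623 and 0.162 CPM in the clones and 2282 CPM in fibroblasts. ENSCAFG00000000874 had 0.556, 1.60 and 0.297 CPM in the clones. In the clones the added 1 outweighs or rivals the level of both genes, so their fall is understated and the likeness depends on it. ENSCAFG00000014837, the neighbour of ENSCAFG00000014812 in the locus, came at place 79, at 2.84. Seen from ENSCAFG00000014837 the other model came at place 8665. Nearest to ENSCAFG00000014837 were ENSCAFG00000002037 on chromosome 12 (14865596 to 14907727) at 0.18 and ENSCAFG00000004406 on chromosome 20 (3874896 to 3936083) at 0.20. ENSCAFG00000002037 had 100.5 CPM in fibroblasts, 50.4 CPM in iNSLCs and 0.958, 1.87 and 0.216 CPM in the clones, where the added 1 outweighs or rivals the level itself. ENSCAFG00000004406 had 1561 CPM in fibroblasts, 778 CPM in iNSLCs and 14.6, 27.2 and 11.8 CPM in the clones.

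The libraries held between 11699186 counts in iNSLCs and 34317091 in iPSC 3. TMM factors ran from 0.770 in fibroblasts to 1.12 in iPSC 2, so that library size as the only scaling shifted the median of all log2 fold changes between iPSCs and fibroblasts to 0.78. It left ENSCAFG00000014812 at -10.68 and ENSCAFG00000014837 at -5.57.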

How the data were processed

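RNA libraries of 3 iPSC clones, 1 iNSLC line and 1 fibroblast culture of the same dog were compared. The deposited files hold raw counts per gene model. The submitters' processing notes name Trim Galore 0.4.0, the aligner STAR 2.5.3a, the counter featureCounts 1.5.2 and CanFam3.1, and the strand and multi-mapping settings the authors used were not found in the sources. The library tables and the series table differed in 0 values.

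The window ran from 30400000 to 30800000. Counts were fitted with edgeR 4.0.16 (R 4.3.3; TMM, filterByExpr, quasi-likelihood test, Benjamini-Hochberg adjusted p under 0.05) as 3 groups in 1 fit to all 5 libraries, which had 11699186 to 34317091 counts. The fit treats the lone libraries as varying like the clones. Standard errors were derived from the log2 fold change and the F statistic of the quasi-likelihood test. That statistic uses a dispersion moderated over all genes, so they reflect spread between clones of 1 animal, partly borrowed from other genes. Counting intervals are at 95% (exact Poisson, Clopper-Pearson, or conditional binomial for ratios) and are too narrow if both mates of a pair were counted, so halved counts were tried. Other alternatives were DESeq2 1.42.0, limma-voom (limma 3.58.1), other scalings, no filter and leaving out each clone.

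Collagen-type models have at least 20 exons of 45, 54, 99, 108 or 162 bases, making up at least 40% of their exons. All models in the window were named, with the nearest outside model, the 2 most alike profiles and the 2 collagen-type models with the largest fall. The locus, the exon rule and the lists were chosen with earlier results of these data known. Lists by symbol and sequences were not analysed here.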

Additional observations from a re-analysis of the deposited data

How the results depend on the processing

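Both tested models of the locus were lower in iPSCs under every setting tried. The log2 fold change ranged from -11.76 to -10.68 for ENSCAFG00000014812 and from -6.37 to -5.57 for ENSCAFG00000014837 against fibroblasts, and from -11.83 to -10.99 and from -5.36 to -4.81 against iNSLCs. Leaving out each clone in turn, 2 models were called against fibroblasts each time, and between 0 and 2 against iNSLCs. The 0 came without iPSC 3, where edgeR called 0 of 16742 genes (4863 at an unadjusted p under 0.05), while DESeq2 called 2412 and limma-voom 406. These runs of DESeq2 and limma-voom were chosen after seeing the data. As the locus was chosen with both contrasts known, nothing is read from the calls of its models under any setting. Among all genes the calls ranged from 2779 to 6906 against fibroblasts and from 0 to 4159 against iNSLCs when a clone was left out, and DESeq2 called 3480 against iNSLCs instead of 1961. Calls among collagen-type models outside the locus ranged from 6 to 9 against fibroblasts and from 0 to 6 against iNSLCs without 1 clone.

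The ratio of iNSLCs to fibroblasts for ENSCAFG00000014812 was 0.978 as reported, 1.004 under DESeq2 size factors and 1.25 under library size alone. For ENSCAFG00000014837 it was 0.464, 0.477 and 0.591. Without the mitochondrial models in the library total, the locus took 3.77% of iNSLCs, 0.0208%, 0.0299% and 0.0137% of the iPSC clones and 3.56% of fibroblasts. Without the most abundant member of each library, it took 0.511% of iNSLCs and 0.864% of fibroblasts (ENSCAFG00000014812 left out) and 0.00265%, 0.00102% and 0.000973% of the clones (ENSCAFG00000014837 left out). With ENSCAFG00000014812 left out of the clones too, their shares were 0.0169%, 0.0259% and 0.0118%. With library size only, 68.1% of called genes were higher in iPSCs than in fibroblasts instead of 48.8%, and 41.7% instead of 31.3% against iNSLCs. No paired analysis was possible, since of the clones only iPSC 1 carries the line number of the iNSLC library.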
